A study of Mus musculus with 6 samples.

Results

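Mitochondrial ribosomal proteins are the nuclear-encoded proteins of the ribosome inside mitochondria, and their genes carry the prefixes Mrpl (large subunit) and Mrps (small subunit). Members were all rows whose symbol begins with either prefix followed by a number, which gave 77 of the 21878 rows of the deposited tables, 48 of them Mrpl and 29 Mrps. The data came from 6 RNA sequencing libraries of cells sorted from the bone marrow of wild-type mice that the submitters call LT-HSCs, for long-term hematopoietic stem cells; the gate took cells with c-Kit and Sca1 and without lineage antigens, CD34 and CD135. Mice had eaten a control diet (CD, 3 libraries) or a serine/glycine-free diet (SGFD, 3 libraries) for 3 months. Both groups shared the wild-type genotype and the gate; strain, age, sex and any pooling of mice are not given in the sources used here, so p-values measure only the spread between these libraries, which may be technical.

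The mitochondrial ribosome makes the few proteins that mitochondrial DNA encodes, all of them parts of the respiratory chain or of ATP synthase. Its RNAs come from mitochondrial DNA, but its proteins are encoded in the nucleus, made on cytosolic ribosomes and imported. Some of these proteins descend from bacterial ribosomal proteins and others exist only in mitochondria. Blood stem cells are known for low mitochondrial activity and for a low rate of protein synthesis, which rise as the cells are activated or differentiate.

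Whole-series values bear on the members in several ways. Recovered fragments came to between 18427138 and 19531159 per library, and FPKM (fragments scaled by gene length and library depth) summed to between 427769 and 433592 in the CD libraries and between 464222 and 485048 in the SGFD libraries. Cytosolic ribosomal proteins took 25.5% ± 0.335 of all FPKM with CD and 28.4% ± 0.869 with SGFD (SD, n = 3 each). Of 11 tested LT-HSC markers 9 fell and none rose, where 41.8% of all tested genes fell and 17.7% rose. Summed over all listed LT-HSC markers, FPKM went from 378 to 379.7 with CD to 215 to 223 with SGFD. Of 11 tested granulocyte progenitor markers all 11 rose, from 884 to 914 to 3538 to 3929 FPKM in sum, and of 9 monocyte markers 8 rose, from 187 to 195 to 335 to 363. Of 7 macrophage markers 6 fell and 1 rose (28.6 to 29.8 FPKM with CD, 23.5 to 26.6 with SGFD), of 5 erythroid markers 3 fell and 1 rose (235 to 239, then 136 to 147), and of 4 B cell markers 3 fell (27.7 to 37.1, then 25.5 to 26.4). None of these markers was at 0 in every library. Their part in the members' values was not tested, and in bulk libraries a different mix of cells and a different RNA level per cell cannot be told apart.

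At the deposited scale 57.1% of the members were higher with SGFD and none was lower. Of the 77 members, all of which passed the filter of 1 FPKM in 3 libraries, 44 rose and 0 fell (limma on log2(FPKM + 1), Benjamini-Hochberg adjusted p under 0.05 over 10620 genes). Of all tested genes 17.7% were called higher and 41.8% lower. The members' median log2 fold change was 0.20, with a range from -0.08 to 0.69, beside a median of -0.13 over all tested genes, and all 77 lay above that median. The rises were modest, from 10.5% to 65.4% of the CD mean, with a median of 23.1% among the 44. In 42 members every SGFD library lay above every CD library and in 0 members below, where 19.6% and 45.5% of all tested genes did so.

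The size of the family's change depended on how libraries were scaled. When each library was rescaled to the same sum of FPKM (TPM), 20 members were higher and 5 lower (Mrpl40, Mrpl57, Mrps2, Mrps6 and Mrps31), with a median of 0.07; the median of all genes moved to -0.27, with 9.72% called higher and 59.6% lower. After median-ratio scaling, which moved the median of all genes to -0.01, 63 members were higher and 0 lower (28.8% and 26.8% of all genes). After quantile normalization 46 were higher and 0 lower (21.3% and 24% of all genes).

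**Figure D1:**
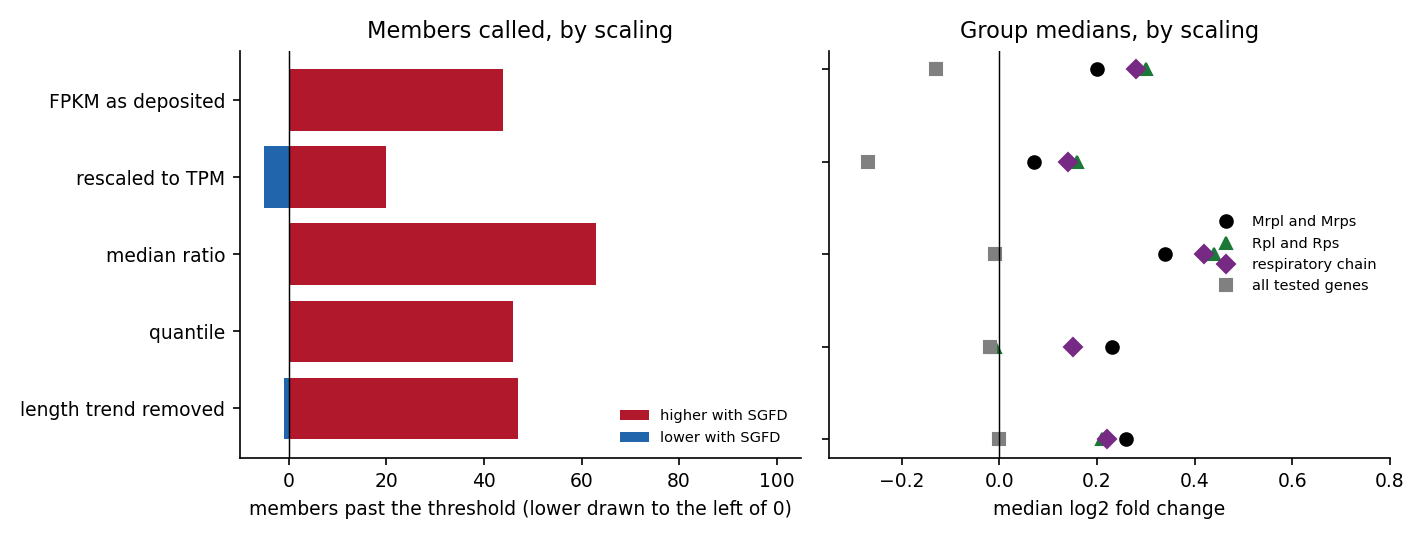
Left, the number of the 77 members called higher (right of 0) or lower (left of 0) with SGFD under 5 treatments of the FPKM values. Right, the median log2 fold change of Mrpl and Mrps genes, cytosolic Rpl and Rps genes, nuclear respiratory chain genes and all tested genes under the same treatments. The members' median lies between 0.07 (TPM) and 0.34 (median ratio).

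Summed over the members, FPKM rose from 2522 ± 21.7 with CD to 3004 ± 141 with SGFD (SD, n = 3 each). By library the sums were 2499, 2542 and 2525 in CD replicates 1 to 3 and 3038, 2848 and 3125 in SGFD replicates 1 to 3, so the groups did not overlap. As a share of all FPKM in a library, which is free of the scaling between libraries, the members held 0.584%, 0.586% and 0.59% with CD and 0.639%, 0.614% and 0.644% with SGFD. SGFD replicate 2 was the lowest of its group for 51 of the 77 members and replicate 3 the highest for 42. In SGFD replicates 1 to 3, 68, 63 and 70 members lay above their CD mean. Without SGFD replicate 2, 49 members were called higher, and without SGFD replicate 3, 36.

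**Figure D2:**
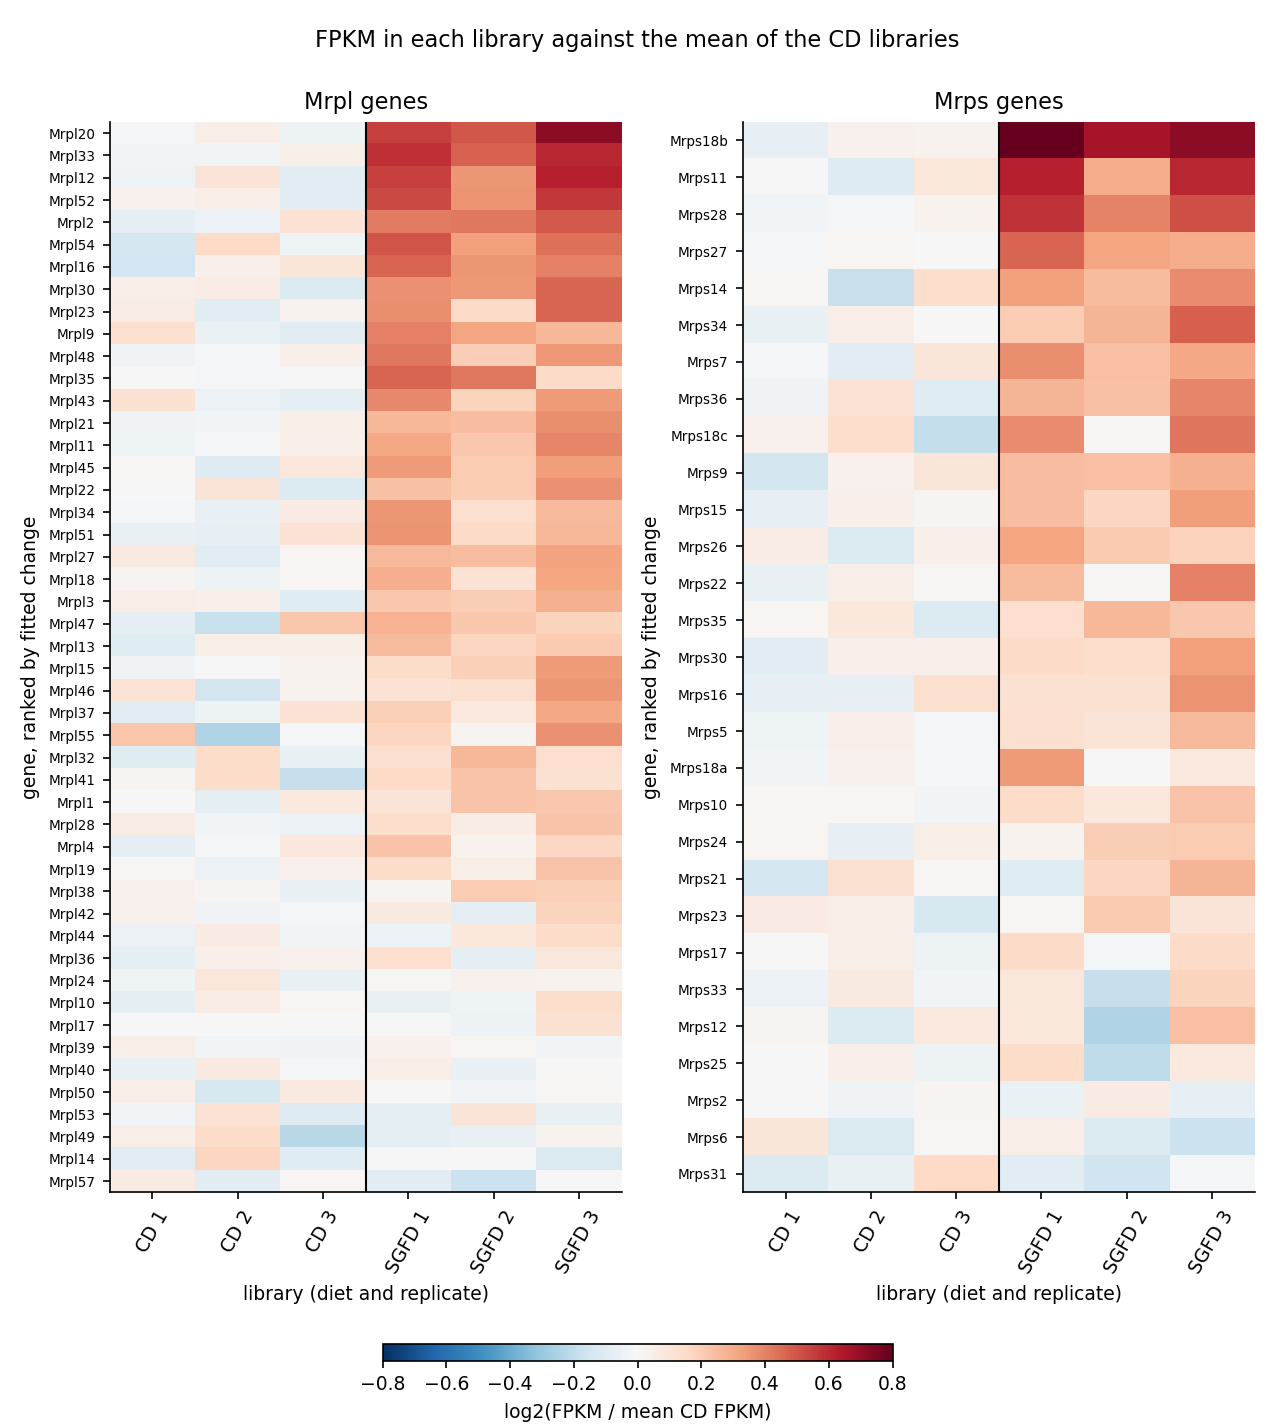
Each row is a member, ranked by fitted change within Mrpl (left) or Mrps (right), and each column a library; colour is log2 of FPKM over the mean of the 3 CD libraries. The upper rows are red in all 3 SGFD libraries, and the column of SGFD replicate 2 is the palest of the 3, being the lowest of its group for 51 members.

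Large and small subunit genes moved by nearly the same amount. Of 48 Mrpl genes 28 rose and 0 fell, and of 29 Mrps genes 16 rose and 0 fell. Among all tested genes 17.7% rose and 41.8% fell. The medians were 0.21 for Mrpl and 0.20 for Mrps genes, as log2 fold changes. The middle 50% of Mrpl genes lay between 0.06 and 0.30 and that of Mrps genes between 0.11 and 0.29. Symbols do not follow the structure in every case: Mrps30 and Mrps18a sit in the large subunit, and Mrps36 is known as a part of the 2-oxoglutarate dehydrogenase complex and not of the ribosome. With the 3 genes placed so, 29 of 50 large and 14 of 26 small subunit genes rose, both with a median of 0.20. The difference between the subunits was not tested, because a score over chosen genes gives no valid p here.

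The balance of summed mRNA tilted slightly to the large subunit, and this was not seen without 3 abundant Mrpl genes. Summed Mrpl FPKM over summed Mrps FPKM was 1.837, 1.823 and 1.806 in the CD libraries and 1.909, 1.887 and 1.861 in the SGFD libraries, so every SGFD value was above every CD value. Without Mrpl33, Mrpl12 and Mrpl52, the 3 members of highest mean FPKM, the same ratio was 1.514, 1.497 and 1.498 with CD and 1.508, 1.505 and 1.466 with SGFD, and the groups overlapped. All 3 are Mrpl genes with large rises and no Mrps gene was left out, so that choice by itself tends to lower the SGFD ratio.

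Genes were also split by descent, to be set beside the 17.7% of all tested genes that rose. Of 45 genes counted as having a bacterial counterpart 29 rose (median 0.23), and of 31 genes counted as mitochondria-specific 14 rose (median 0.19). The 31 include Mrps30, and also Mrps18a and Mrps18b, which are relatives of a bacterial protein. Within the large subunit the counts were 20 of 29 (median 0.24) and 8 of 19 (median 0.16), and within the small subunit, Mrps30 and Mrps18a left aside, 9 of 16 (median 0.18) and 5 of 10 (median 0.21). Mrpl47, which was called higher, was counted as mitochondria-specific although it is known to have a bacterial counterpart, so these counts are approximate. The differences were not tested.

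**Figure D3:**
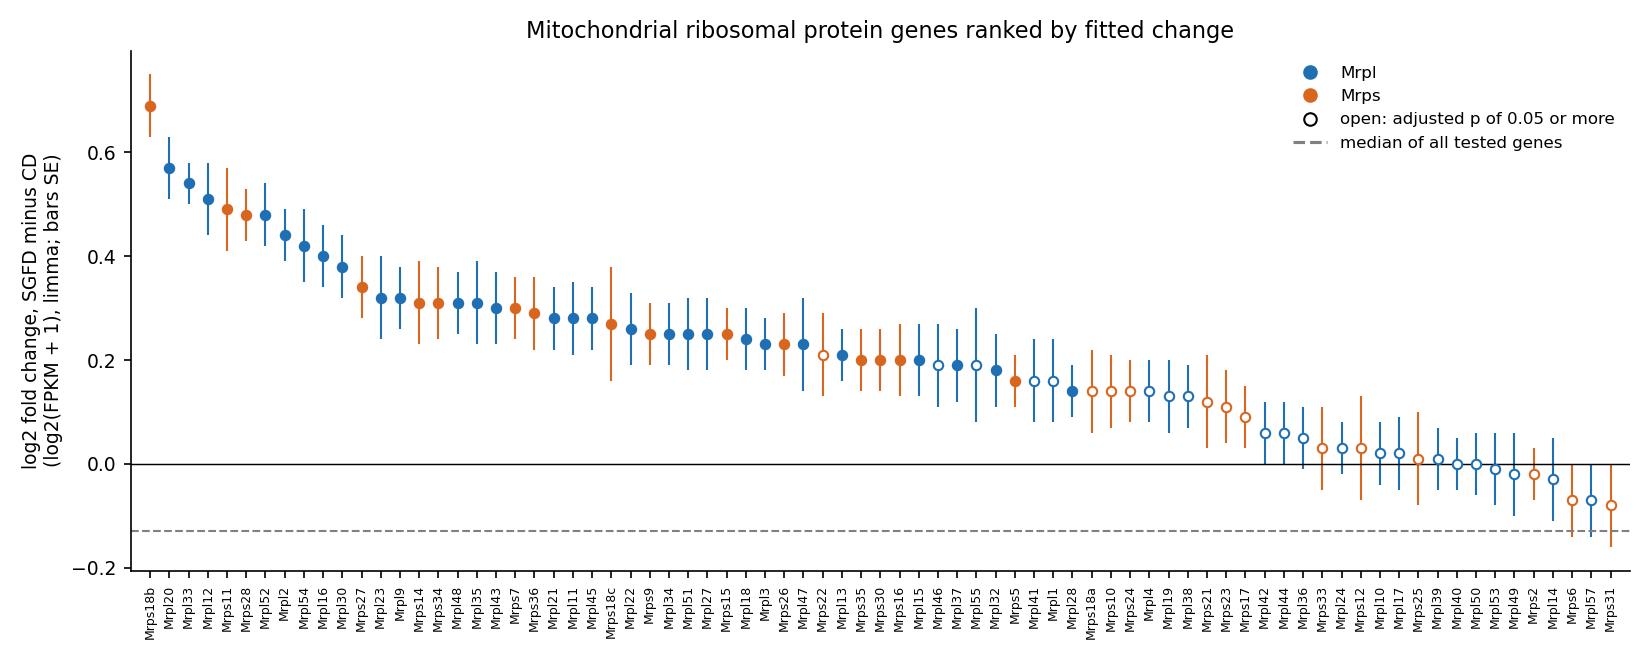
Fitted log2 fold change of each of the 77 members with its standard error, ranked, Mrpl in blue and Mrps in orange; filled points passed an adjusted p of 0.05 and the dashed line is the median of all tested genes (-0.13). Mrpl and Mrps genes are mixed along the ranking, from Mrps18b (0.69) to Mrps31 (-0.08).

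Mrps18b led the ranking. It encodes 1 of 3 mitochondrial relatives of bacterial ribosomal protein S18; it sits in the small subunit at a place without a bacterial counterpart and was counted here as mitochondria-specific, whereas Mrps18c takes the bacterial place; in GRCm38 it lies on chromosome 17 from 35910379 to 35916389, on the minus strand. Mrps18b stood at 14.5, 15.6 and 15.5 FPKM with CD and at 26.4, 24 and 25 with SGFD. The groups were far apart, and its log2 fold change was 0.69 ± 0.06 (SE; limma, adjusted p = 9.58e-06), above 98.2% of tested genes. Its relatives moved less: Mrps18c stood at 69.4, 74.7 and 59.4 FPKM with CD and at 88.3, 68.2 and 91.3 with SGFD. The groups of Mrps18c overlapped through SGFD replicate 2, and its call (0.27 ± 0.11, limma, adjusted p = 0.0461) was lost when CD replicate 1 (adjusted p = 0.104) or 3 (0.195), or SGFD replicate 1 (0.155) or 3 (0.153), was left out. It was also lost on the TPM scale (0.266), after quantile normalization (0.189), after removal of the length trend (0.329), with no filter on low values (0.129) and without the variance trend (0.0961). For Mrps18a the CD libraries gave 34.9, 36.4 and 35.2 FPKM and the SGFD libraries 45, 35.5 and 37.5; the gene did not pass (limma, adjusted p = 0.141), except after median-ratio scaling (0.0138) and without SGFD replicate 2 (0.0287).

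Within a library, the ratio of Mrps18b to Mrps18a does not depend on a scaling by 1 factor per library, as in TPM or median-ratio scaling. It was 0.416, 0.427 and 0.442 with CD and 0.587, 0.677 and 0.667 with SGFD, a log2 difference of 0.59. Quantile normalization and removal of the length trend do change this ratio. The log2 fold changes of Mrps18b and Mrps18a were 0.78 and 0.13 after quantile normalization. After removal of the length trend they were 0.58 and 0.16. The ratio of Mrps18b to Mrps18c rose from 0.226 ± 0.0306 to 0.308 ± 0.0403 (SD, n = 3 each), also without overlap. Each had an exact two-sided permutation p of 0.1, the smallest that 3 against 3 libraries can give. The Mrps18c to Mrps18a ratio, 1.91 ± 0.195 with CD and 2.11 ± 0.286 with SGFD, overlapped (exact permutation p = 0.6). These were 3 of 7 ratios computed, all chosen after the values were seen; adjusted over the 7 no p passes.

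**Figure D4:**
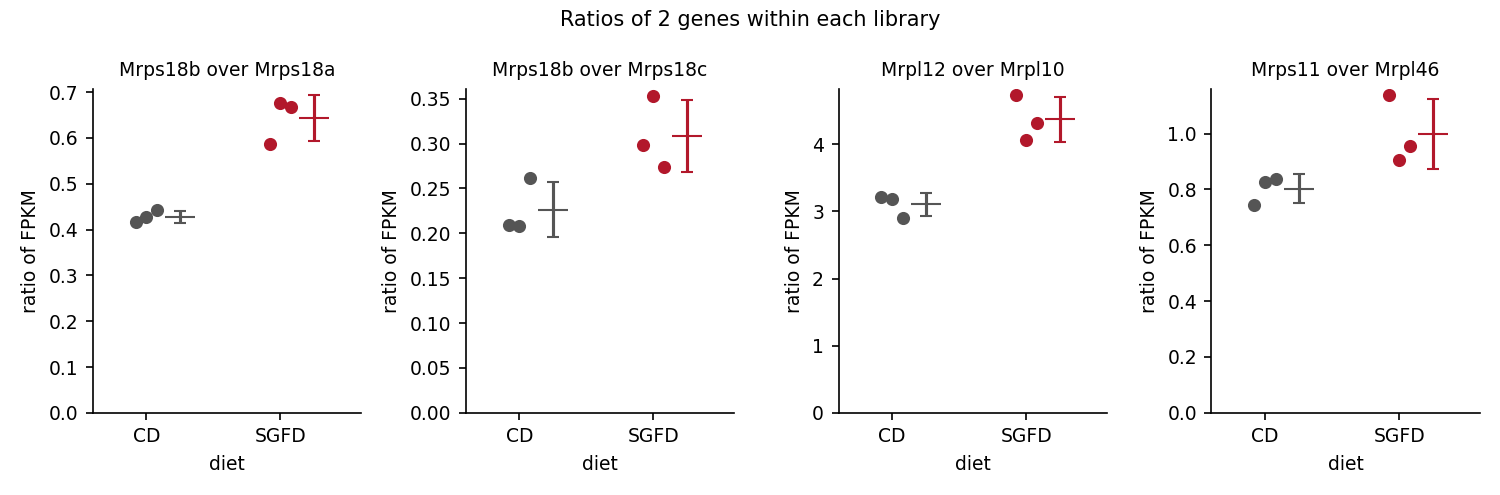
Ratio of FPKM of 2 genes within each library, for 4 pairs, CD in grey and SGFD in red; points are libraries, and the bar beside them is the mean with its SD. In all 4 pairs the 3 SGFD points lie above the 3 CD points. These pairs are some of the ratios computed and were chosen after the values were seen. The ratio of Mrps18c to Mrps18a, whose groups overlapped, is not drawn.

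Mrpl20, Mrpl33 and Mrpl12 came next in the ranking; Mrpl12 is described with the stalk proteins. Mrpl20, whose bacterial counterpart binds ribosomal RNA early in subunit assembly, stood at 33.2, 34.8 and 32.6 FPKM with CD and at 49.0, 47.4 and 55.0 with SGFD (log2 fold change 0.57 ± 0.06). Mrpl33, a small rRNA-binding protein gene and the most abundant member, stood at 103, 103 and 108 FPKM with CD and at 157, 145 and 159 with SGFD (0.54 ± 0.04). Both sets of SGFD values lay well clear of the CD values. Mrpl52, found only in mitochondria and behind Mrps11 and Mrps28 in the ranking, stood at 90.1, 91.2 and 82.8 FPKM with CD and at 127, 113 and 130.3 with SGFD (0.48 ± 0.06). Mrpl2, which in bacteria lies close to the site of peptide bond formation, went from 43.0 ± 3.02 to 58.4 ± 1.69 FPKM, and Mrpl54 from 47.5 ± 4.97 to 63.7 ± 3.85 FPKM (SD, n = 3 each). All of these passed under each scaling.

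The stalk proteins, which recruit translation factors to the large subunit, did not move together. Mrpl12, the stalk protein that also binds mitochondrial RNA polymerase, stood at 90.8, 99.4 and 87.2 FPKM with CD and at 135, 118 and 142 with SGFD (log2 fold change 0.51 ± 0.07, limma, adjusted p = 0.000175). Mrpl10, which anchors Mrpl12 to the ribosome, stood at 28.2, 31.1 and 30.1 FPKM with CD and at 28.6, 29.1 and 32.9 with SGFD, overlapping values with a log2 fold change of 0.02 ± 0.06. The ratio of Mrpl12 to Mrpl10 mRNA was 3.22, 3.19 and 2.9 with CD and 4.73, 4.06 and 4.32 with SGFD (exact permutation p = 0.1, the smallest possible). Mrpl11, at the base of the stalk, rose from 11.5 ± 0.316 to 14.2 ± 0.883 FPKM, though not on the TPM scale (adjusted p = 0.0618). Mrpl53, a mitochondria-specific protein near the stalk, stood at 18.8 ± 1.42 FPKM with CD and at 18.7 ± 1.32 with SGFD (log2 fold change -0.01 ± 0.07).

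Around the exit of the peptide tunnel, Mrpl45, which ties the ribosome to the inner membrane, went from 18.2 ± 1.17 to 22.3 ± 1.2 FPKM and Mrpl23 from 26.3 ± 1.42 to 33.2 ± 3.54 FPKM; both rose, Mrpl45 not on the TPM scale (adjusted p = 0.0728). Mrpl44, a protein with a ribonuclease III-like fold, had 29.8 ± 1.18 and 31.2 ± 2.13 FPKM and did not pass, except after median-ratio scaling (adjusted p = 0.0203, limma). In the core, Mrpl3 rose from 42.8 ± 2.48 to 50.4 ± 1.59 FPKM, though not on the TPM scale (adjusted p = 0.123). Mrpl4, at 27.7 ± 1.61 and 30.6 ± 2.14 FPKM, passed only after median-ratio scaling (adjusted p = 0.00609), after removal of a transcript length trend (0.0425) or without SGFD replicate 2 (0.0174).

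In the small subunit the rises after Mrps18b were led by Mrps11, Mrps28 and Mrps27. Mrps11, a protein of the subunit's platform, stood at 20.4, 19.0 and 21.7 FPKM with CD and at 31.4, 25 and 30.9 with SGFD (log2 fold change 0.49 ± 0.08). Mrps28 stood at 29.0, 29.3 and 30.0 FPKM with CD and at 44.0, 38.7 and 42.1 with SGFD (0.48 ± 0.05). Neither pair of groups overlapped. Mrps27, an RNA-binding protein of the pentatricopeptide repeat family, went from 18.4 ± 0.194 to 23.6 ± 1.53 FPKM, Mrps34 from 43.2 ± 1.67 to 54.0 ± 5.44 FPKM and Mrps14 from 18.8 ± 2.07 to 23.5 ± 0.992 FPKM; Mrps14 did not pass on the TPM scale (adjusted p = 0.0666). Mrps7, an early rRNA-binding protein, rose from 42.0 ± 2.75 to 51.9 ± 2.33 FPKM. Mrps36 rose from 21 ± 1.59 to 25.9 ± 1.53 FPKM, not after removal of the length trend (adjusted p = 0.116), and Mrps30 from 31.3 ± 1.48 to 36.3 ± 2.71 FPKM, not on the TPM scale (0.327) or without CD replicate 1 (0.0681). Mrps12, at the decoding centre, did not pass: it stood at 34.7, 31.7 and 36.1 FPKM with CD and at 36.2, 28.9 and 40.3 with SGFD, where replicate 2 lay below and replicate 3 above all CD values.

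The members nearest the median of all genes were Mrps31, Mrps6 and Mrps2 in the small and Mrpl57, Mrpl14 and Mrpl49 in the large subunit. Mrps31 stood at 13.2, 13.7 and 15.9 FPKM with CD and at 13.4, 12.8 and 14.2 with SGFD, and Mrpl57 stood at 11.7, 10.5 and 11.3 FPKM with CD and at 10.5, 9.93 and 11.2 with SGFD. Their groups overlapped, and neither passed at the deposited scale. Mrps6 (25.6 ± 1.86 and 24.3 ± 2.02 FPKM), Mrps2 (23.1 ± 0.38 and 22.9 ± 1.15), Mrpl14 (16.9 ± 1.88 and 16.5 ± 0.782) and Mrpl49 (26.3 ± 3.34 and 25.8 ± 0.98) did not pass either. Mrpl14 was called lower once the length trend was removed (log2 fold change -0.21, adjusted p = 0.0425).

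Members differed 18.9-fold in level with CD, from Mrpl1 (5.54 FPKM, the lowest mean) to Mrpl33, with a median of 29.8 FPKM. The order at the top was Mrpl33, Mrpl12, Mrpl52 and Mrpl42 in the large subunit. With CD, the values of Mrpl33 lay above those of Mrpl12, while Mrpl12 overlapped Mrpl52 and Mrpl52 overlapped Mrpl42. Mrpl42 differed from the other 3 in its response, at 83.7 ± 1.73 FPKM with CD and 87.3 ± 7.79 with SGFD, and passed only after median-ratio scaling (adjusted p = 0.0314), removal of the length trend (0.0453) or without SGFD replicate 2 (0.0308). The most abundant small subunit genes were Mrps18c, Mrps16, Mrps21 and Mrps26. Mrps26 rose from 46.9 ± 2.94 to 55.4 ± 2.65 FPKM, though not on the TPM scale (adjusted p = 0.18). Mrps16 had 64.3 ± 5.13 and 74.1 ± 7.33 FPKM, a call (limma, adjusted p = 0.036) lost when CD replicate 1 (0.119) or 2 (0.115) or SGFD replicate 3 (0.119) was left out, after quantile normalization (0.249), on the TPM scale (0.456), with no filter (0.0951) and without the variance trend (0.0823). Mrps21 (49.2 ± 4.36 and 53.7 ± 6.88 FPKM) did not pass, except after median-ratio scaling (0.037) and without SGFD replicate 1 (0.031). In 4 groups of members ordered by CD level, 9 of 20, 8 of 19, 12 of 19 and 15 of 19 rose, from the lowest levels to the highest. Their median log2 fold changes differed little, at 0.18, 0.19, 0.19 and 0.24. Of all tested genes 17.7% were called higher, but the share at matched levels was not computed. Calls also depend on precision, so the counts alone do not show a larger response of abundant members.

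The depth behind a member ranged from 222 to 2107 recovered fragments per library on average, with a median of 838; these numbers are exact up to an unknown whole factor per gene, and they cover counting error only. Counting alone gives a relative error of 2.18% to 6.71% at these numbers, with a median of 3.46%. The relative SD between replicates had a median of 5.65% with CD and 6.37% with SGFD, so replicate spread was larger than counting error for a typical member.

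The members have short transcripts, and short transcripts were higher with SGFD across the whole table. The longest annotated transcript of a member had a median of 1849 bases, beside 3377 over the tested genes with an annotated length. Tested genes were put in 10 bins by length, and the bin median (log2 fold change) went from 0.13 in the shortest, of 107 to 1404 bases, to -0.38 in the longest. In the shortest bin 18 of 32 members rose, with a median of 0.24, where 41.9% of all genes in the bin rose. Of the 77 members 63 lay above the median of their own bin, and 22 of the 32 in the shortest bin did so. After a smooth trend on length was subtracted from each library, 47 members were higher and 1 lower, with a median of 0.26, where 25.9% and 21.9% of all tested genes were called. The step moved Mrpl13 (6008 bases) from 0.21 to 0.49 and Mrps26 (4278 bases) from 0.23 to 0.42, but Mrps21 (488 bases) from 0.12 to -0.10. Fragments recovered per FPKM were few for some long entries: Mrpl13 had 1216 on average, at 74.8 FPKM with CD and 86.6 with SGFD. They were many for some short entries: Mrpl27 (756 bases) had 497 on average, at 9.03 and 10.9 FPKM. The longest annotated transcript may therefore not be the one measured. Bins and trend may treat some members as too long and others as too short, which was not tested. Mrpl27 moved from 0.25 to 0.09 and lost its call (adjusted p = 0.305, limma).

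**Figure D5:**
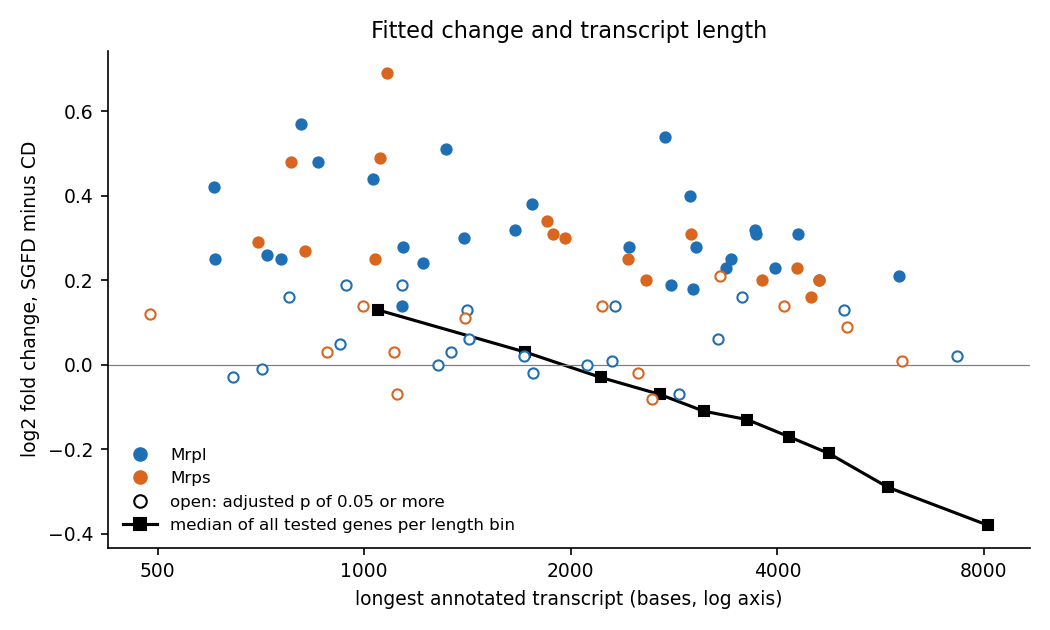
Fitted log2 fold change of each member against its longest annotated transcript in bases (log axis), Mrpl in blue and Mrps in orange, filled where adjusted p was under 0.05. Black squares join the medians of all tested genes in 10 length bins; they fall from 0.13 to -0.38, and 63 of 77 members lie above the median of their bin.

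Members often share a start region with a gene on the other strand. In GENCODE M21, 33 of 77 members (42.9%) have the start of another protein-coding gene on the opposite strand within 1000 bases of their own start, beside 17.9% of the tested genes that could be placed. The partners that are not members and were tested numbered 26. Of these 7 rose and 7 fell, where 17.7% and 41.8% of all tested genes did. Their median was -0.12 (log2 fold change), close to the -0.13 of all tested genes, while the members facing them had a median of 0.24. The member lay above its partner in 20 of 26 pairs, but all 77 members lay above the median of all tested genes. Mrps18b starts 45 bases from Ppp1r10, which encodes a regulatory subunit of protein phosphatase 1 and had 12.5 ± 0.643 FPKM with CD and 13.4 ± 1.66 with SGFD. Mrpl54 starts 26 bases from Apba3, which had 7.02 ± 0.449 and 7.01 ± 0.357 FPKM. Neither partner passed (adjusted p = 0.427 and adjusted p = 0.988, limma). In the other direction, Mrpl49 starts 59 bases from Fau, a gene for a cytosolic ribosomal protein, which rose from 671 ± 21 to 850.1 ± 50 FPKM while Mrpl49 did not pass. Mrps7 rose while Gga3, whose start region it overlaps, fell from 13.6 ± 0.707 to 9.71 ± 1.9 FPKM. Mrpl43 faces Twnk, which the deposited tables list under its older symbol Peo1 and which was not counted among the 26. One pair consists of 2 members, Mrps11 and Mrpl46, whose annotated ends overlap; their ratio was 0.744, 0.828 and 0.837 with CD and 1.14, 0.904 and 0.954 with SGFD, without overlap of the groups (exact permutation p = 0.1, the smallest possible). Whether reads were assigned by strand is not given in the sources used here, so values of overlapping pairs are uncertain.

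Promoter windows from 250 bases before to 50 bases after the start, from RefSeq on GRCm38.p6, were matched for 68 members and 8278 tested genes. Letters of 5 motifs were searched on both strands. The ETS letters CCGGAAG, a core bound by GABP and related factors, were found in 25 of 68 members (36.8%) and in 22.1% of tested genes; by window, they were in 33.8% of member windows and 18.9% of all windows. The YY1 letters ATGGCGG were in 19.1% of members and 10.5% of genes, and the NRF1 consensus in 19.1% and 12.8%. The Sp1 letters GGGCGG were in 50% of members and 70.2% of genes, and the E-box CACGTG in 7.35% and 12.2%. Among the 38 matched members that rose, 16 had the ETS letters, 9 the YY1 letters and 7 the NRF1 letters. Among the 30 that did not pass, the numbers were 9, 4 and 6. A match is a description of letters and not a site of binding.

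The stretches below run from 130 bases before to 20 bases after the start, 5′ to 3′ on the gene's strand, with NRF1, ETS and YY1 letters in capitals. They are shown because they set members with large rises beside members that did not pass: Mrps18b (chr17:35916421-35916570, minus strand) as the largest rise, and, for each motif, the member of largest and of smallest fitted change among those with a match in this stretch. These are Mrpl33 (chr5:31613821-31613970, plus strand) and Mrpl57 (chr14:57826109-57826258, plus strand) for ETS, Mrpl12 (chr11:120484507-120484656, plus strand) and again Mrpl57 for NRF1, and Mrps11 (chr7:78783001-78783150, plus strand) and Mrpl53 (chr6:83108978-83109127, plus strand) for YY1.
Mrps18b: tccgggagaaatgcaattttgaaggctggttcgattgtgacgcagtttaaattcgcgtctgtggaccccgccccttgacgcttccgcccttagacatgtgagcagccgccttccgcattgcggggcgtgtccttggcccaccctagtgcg
Mrpl33: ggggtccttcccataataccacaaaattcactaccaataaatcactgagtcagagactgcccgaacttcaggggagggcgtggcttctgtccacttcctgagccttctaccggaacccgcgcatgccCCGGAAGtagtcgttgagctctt
Mrpl57: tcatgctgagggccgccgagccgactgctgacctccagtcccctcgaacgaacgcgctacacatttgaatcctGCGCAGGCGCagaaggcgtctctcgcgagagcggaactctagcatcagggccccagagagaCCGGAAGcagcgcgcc
Mrpl12: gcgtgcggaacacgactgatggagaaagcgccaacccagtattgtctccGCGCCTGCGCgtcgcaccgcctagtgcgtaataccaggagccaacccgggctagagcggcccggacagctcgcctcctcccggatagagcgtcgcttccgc
Mrps11: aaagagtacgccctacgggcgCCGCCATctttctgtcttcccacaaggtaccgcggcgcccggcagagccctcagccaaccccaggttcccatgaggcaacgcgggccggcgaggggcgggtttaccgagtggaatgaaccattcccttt
Mrpl53: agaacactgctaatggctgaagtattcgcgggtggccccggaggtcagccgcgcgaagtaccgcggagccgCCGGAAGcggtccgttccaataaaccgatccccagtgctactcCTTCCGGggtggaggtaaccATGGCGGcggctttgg
Mrps18b has none of the 3 motifs in this stretch, though the ETS letters are elsewhere in its longer window. Mrpl33 has the ETS letters across its start, from position -3, and Mrpl12 has the NRF1 letters from position -81, on the other strand. Mrpl57, which did not pass, holds both the NRF1 letters (from -57) and the ETS letters (from 5). Mrps11 has the YY1 letters from -109, on the other strand. Mrpl53, which did not pass either, has the most matches of the 6, with ETS letters from -59 and, on the other strand, from -16, and YY1 letters from 5.

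Genes that serve the same ribosome without carrying the Mrp prefix were split by role. Among all tested genes 17.7% were higher and 41.8% lower, or 9.72% and 59.6% on the TPM scale. Of 6 other ribosome components 4 rose and 0 fell (median log2 fold change 0.29): Ict1, a peptidyl-tRNA hydrolase built into the large subunit, rose from 30.7 ± 2.66 to 43.4 ± 5.09 FPKM, and Gadd45gip1 from 29.1 ± 2 to 36.2 ± 1.95 FPKM. Chchd1 and Aurkaip1 rose as well, from 57.4 ± 3.84 to 71.0 ± 3.43 and from 43.3 ± 3.63 to 52.8 ± 4.14 FPKM; Chchd1 did not pass after removal of the length trend (0.178), nor Aurkaip1 on the TPM scale (0.0621). Dap3, a GTP-binding small subunit protein, and Ptcd3 did not pass (19.1 ± 0.376 and 19.2 ± 0.547 FPKM for Dap3, 19.3 ± 0.181 and 17.8 ± 1.52 for Ptcd3). Dap3 was called higher after median-ratio scaling (adjusted p = 0.0472, limma) and after removal of the length trend (0.00718). On the TPM scale Ptcd3 was called lower (0.0126), and the 6 genes gave 3 higher and 1 lower.

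Assembly and translation factors went both ways, where 17.7% of all tested genes were higher and 41.8% lower. Those shares were 9.72% and 59.6% on the TPM scale, 28.8% and 26.8% after median-ratio scaling and 21.3% and 24% after quantile normalization. Of 27 tested genes for assembly and rRNA modification 3 rose and 6 fell (median -0.04), or 2 and 10 on the TPM scale, 4 and 1 after median-ratio scaling and 9 and 2 after quantile normalization. C1qbp, a mitochondrial matrix protein needed for mitochondrial translation, rose from 168 ± 3.5 to 230.2 ± 6.12 FPKM, the assembly factor Rbfa from 50.4 ± 1.48 to 60.4 ± 1.5 FPKM and Mpv17l2 from 13.8 ± 2.08 to 17.5 ± 0.931 FPKM, the last not on the TPM scale (0.0827) or after removal of the length trend (0.081). Mrm1, which methylates the large ribosomal RNA, fell from 14.6 ± 0.423 to 8.83 ± 0.342 FPKM (log2 fold change -0.66 ± 0.06, limma, adjusted p = 1.98e-05). Of 19 translation factors 3 rose and 3 fell (median -0.04), or 1 and 9 on the TPM scale, 6 and 1 after median-ratio scaling and 3 and 0 after quantile normalization. Tufm, the elongation factor Tu of mitochondria, rose from 58.7 ± 3.51 to 72.8 ± 6.06 FPKM, whereas the release factor Mtrf1l went from 7.86 ± 0.768 to 5.97 ± 0.0111 FPKM and the recycling factor Gfm2 from 6.56 ± 0.434 to 5.23 ± 0.242 FPKM; neither Mtrf1l (0.246) nor Gfm2 (0.678) passed after quantile normalization, nor did Gfm2 after median-ratio scaling (0.0951) or removal of the length trend (0.354).

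Genes that transcribe and keep mitochondrial DNA, and nuclear regulators of mitochondrial genes, are again to be set beside the 17.7% of all tested genes that were higher and the 41.8% that were lower. For the other scalings, the shares of all tested genes given above apply. Of 15 transcription and upkeep genes 1 rose and 5 fell (median -0.07), or 0 and 10 on the TPM scale (9.72% and 59.6% of all tested genes), 4 and 2 after median-ratio scaling and 2 and 2 after quantile normalization. Polg, the mitochondrial DNA polymerase, went from 13.4 ± 0.836 to 10.1 ± 0.611 FPKM, the helicase gene Peo1 from 17.6 ± 0.484 to 14.3 ± 0.521 FPKM and Tfb2m, a transcription factor of mitochondrial DNA, from 9.60 ± 0.203 to 7.86 ± 0.502 FPKM; Polg did not pass after removal of the length trend (0.841), nor Tfb2m after quantile normalization (0.534) or median-ratio scaling (0.102). Top1mt, at 11.1 ± 0.541 and 12.9 ± 0.345 FPKM, was the exception, a call lost when CD replicate 1 (0.0923) or 3 (0.0564) or SGFD replicate 1 (0.0637) was left out, and on the TPM scale (0.412). Of 11 regulators 0 rose and 5 fell (median -0.21), or 0 and 9 on the TPM scale, 2 and 3 after median-ratio scaling and 1 and 3 after quantile normalization. Myc went from 145 ± 1.23 to 112 ± 4.94 FPKM, Pprc1, a coactivator of NRF1, from 15.2 ± 1.21 to 11.2 ± 1.23 FPKM and Gabpb2 from 18.1 ± 0.64 to 13.7 ± 1.28 FPKM; Gabpb2 (0.921) and Pprc1 (0.0829) did not pass after removal of the length trend. Nrf1 (6.09 ± 0.3 and 5.34 ± 0.066 FPKM), Gabpa (18.6 ± 0.421 and 17.9 ± 1.33) and Yy1 (60.6 ± 1.81 and 63.1 ± 2.63), whose motifs are given above, did not pass at the deposited scale. On the TPM scale Nrf1 (limma, adjusted p = 0.00788) and Gabpa (0.0398) were called lower. Yy1 was called higher after median-ratio scaling (0.0061). Both Yy1 (0.000197) and Gabpa (0.0194) passed after removal of the length trend, in a direction that is not given here.

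Beside the 2 gene groups most like them, the members had the lowest median at the deposited scale. All 78 tested cytosolic ribosomal protein genes rose (median 0.30, and every gene between 0.10 and 0.47), but 15 were higher and 14 lower after quantile normalization. For the respiratory chain, 69 of 81 tested nuclear genes rose and 1 fell (median 0.28). Their median was also the lowest of the 3 on the TPM scale (0.07, beside 0.16 for cytosolic ribosomal proteins and 0.14 for the respiratory chain). The same held after median-ratio scaling (0.34, beside 0.44 and 0.42). In 2 other settings the members had the highest of the 3 medians. After quantile normalization the medians were 0.23 for the members, -0.01 for cytosolic ribosomal proteins and 0.15 for the respiratory chain, and after removal of the length trend 0.26, 0.21 and 0.22. With the length trend removed, 47 members, 67 cytosolic ribosomal protein genes and 54 respiratory chain genes were called higher, where 25.9% of all tested genes were. The difference between the groups was not tested.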

How the data were processed

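RNA of sorted LT-HSCs was extracted with an RNeasy Micro kit and made into TruSeq stranded mRNA libraries, per the labels' protocols. Tools and builds named in the submitters' processing notes, none with a version, are fastp, HISAT2, StringTie, GRCm38 and mm10. No source names the unit of the deposited values; their form is that of FPKM, and how the authors normalized them is otherwise not given in the sources used here. For 99.99% of the 15509 rows above 0, a step could be found that gives whole fragments in all 6 libraries, within 0.02, and this gave the depths. Rows with at least 1 FPKM in at least 3 libraries (10620) were fitted by limma 3.58.1 (R 4.3.3; trend, robust) after adding 1 FPKM and taking log2, SGFD against CD, two-sided; such fold changes understate low genes. Lengths and gene positions came from GENCODE M21 (GRCm38; 96.9% of tested rows). Alternatives were 2 other filters, another pseudocount, 3 scalings, 1 variance model, a length trend, the replicate block and leaving out each library. Named members were, per subunit, the 6 largest rises, the 4 highest means, the 3 nearest the median of all genes and a panel by role, and per pathway list the 3 smallest p-values; others were named after their values were seen. Members and lists were chosen with earlier results of these data known. Reads shared with pseudogene copies may have been split between rows. The limma fit was tested on simulated data in which few genes changed, evenly up and down, and by more than most members did. That test does not cover the many, uneven and small changes of these data.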

Additional observations from a re-analysis of the deposited data

How the results depend on the processing

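The 44 calls were not equally firm: 33 stayed higher whichever library was left out and 19 stayed higher in all 15 alternative fits, among them Mrps18b, Mrpl20, Mrpl33, Mrpl12, Mrps11, Mrpl52 and Mrps28. How many of all tested genes kept their calls in this way was not computed. Rescaling to TPM was chosen after the data were seen. It gave 20 members higher and 5 lower (Mrpl 13 and 2, Mrps 7 and 3), with medians of 0.07, 0.07 for Mrpl and 0.06 for Mrps. Median-ratio scaling gave a median of 0.34 for the members, for Mrpl and for Mrps. Removal of the length trend left 1 member, an Mrpl gene, lower, and gave Gabpb2 a log2 fold change of 0.01. The cause of these shifts between scalings was not tested. Leaving out 1 library at a time gave 36 to 49 members higher (Mrpl 23 to 30, Mrps 12 to 19) and 0 lower, with medians of 0.18 to 0.24 (Mrpl 0.20 to 0.24, Mrps 0.14 to 0.24). The difference of the subunit medians lay between -0.07 and 0.05 in all fits. The labels do not say whether replicate numbers pair the libraries, and they were not treated as pairs. Same-numbered libraries had correlations of -0.007, -0.227 and -0.133 between their deviations from the group means, and unlike numbers had -0.095 to 0.216. These values cannot decide the question, because the deviations within a group are tied to each other. With the replicate number as a block 41 members were higher and 0 lower, and Mrps18c lost its call (adjusted p = 0.0856, limma). Named genes past the threshold in neither fit changed sign 40 times, in 14 genes whose log2 fold change was at most 0.14 in size. Leaving out pseudogene rows was not run, since no member was annotated as one.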
